A study of Mus musculus with 4 samples.

Results

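The genes examined here encode the machinery that shortens, decaps and degrades messenger RNA (mRNA), and their N6-methyladenosine (m6A) peaks were described in splenic natural killer (NK) cells. Members were the protein-coding mouse genes of the GRCm38 annotation whose symbols begin with Cnot, Exosc, Dcp, Edc, Upf, Smg, Xrn, Pan or Lsm followed by a digit. This gave 53 genes among 21951 protein-coding genes. In the peak list, 91 of 20727 distinct peaks carried the name of a member, and 40 of the 53 genes had at least 1 peak.

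The cells were splenic NK cells of C57BL/6 mice, sorted after the animals had received an IL-15 expression plasmid (pLIVE-IL-15) that expands NK cells, so that they represent NK cells under high IL-15 rather than resting ones. Mice in the study were several weeks old per its methods, and how many were used for these libraries was not given in the sources used here. Poly(A) RNA was fragmented, and fragments bound by an antibody against m6A were sequenced (methylated RNA immunoprecipitation sequencing, MeRIP-seq) beside fragments that had not been immunoprecipitated. There were 4 libraries in 2 groups, namely 2 m6A immunoprecipitates and 2 inputs, all from the same kind of cell and without a treated or mutant group. Each peak had 1 fold enrichment (immunoprecipitate over input, a ratio with no unit) and 1 peak-calling p-value for the whole series. No value per library was given, so that depth is unknown, no error between replicates could be computed and no test was made. All 9 NK cell markers examined (Ncr1, Klrb1c, Klrk1, Eomes, Tbx21, Gzmb, Prf1, Itga2 and Il2rb) had a peak. Of the markers of other cells, 1 of 3 for B cells (Cd79a), 2 of 3 for T cells (Cd3e and Cd3g) and 3 of 3 for myeloid cells (Lyz2, Cd68 and Itgam) had one as well. Itgam does not separate myeloid from NK cells, since it encodes CD11b, which the study used to stage NK cell maturation. The list holds no expression level, so how much RNA of other cells was present, and its part in any peak, was not tested.

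Decay of most mRNAs starts with removal of the poly(A) tail by the PAN2-PAN3 and CCR4-NOT deadenylases. The body is then degraded from the 5′ end, after DCP2 has removed the cap and exposed the RNA to the exonuclease XRN1, or from the 3′ end by the exosome. Nonsense-mediated decay (NMD) is the surveillance branch, in which the helicase UPF1 and the SMG proteins send mRNAs with a premature stop codon into the same routes. The m6A reader YTHDF2 is known to bring CCR4-NOT to methylated mRNAs. m6A itself is found mostly in the motif DRACH (D is not C, R is a purine, H is not G), of which GGAC followed by A, C or T is the most frequent form, and often near the stop codon.

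In the member peaks near the stop codon with the lowest p-values, such a motif lay within 25 nt of the peak centre. Peak centre here means the centre of the exonic part of the peak, which can be far from the middle of its genomic span. The motif was picked as the nearest one, so its closeness follows in part from that choice and was not tested. The sequences below are shown because they come from the peaks with the 5 lowest p-values among member peaks of at most 500 exonic nt that lay within 200 nt of the stop codon. They are printed 5′ to 3′ on the strand of the gene from the GENCODE transcripts (GRCm38), with the motif nearest the peak centre in capitals and 10 nt on each side. The motif is GGAC, or any DRACH where the peak held no GGAC.
Lsm5: ggaaataataTAACAatgctggttc
Exosc5: cttgtgggccAGACAgaaggcagcg
Lsm4: cgctggccacTGACTcagtttctgg
Cnot3: caaggccatgGGACaccctccccc
The Lsm5 motif (chromosome 6, 56702099 to 56702103, minus strand) lay in the coding sequence, with its A 38 nt before the end of the stop codon, and the printed run crosses an exon junction. The Exosc5 window (chromosome 7, 25670486 to 25670510) and the Lsm4 window (chromosome 8, 70678547 to 70678571) lay in 3′ UTRs, with the motif's A 57 and 108 nt past the stop codon. The Cnot3 window (chromosome 7, 3660914 to 3660937, A 100 nt past the stop codon) was the nearest GGAC for both overlapping Cnot3 peaks at the end of that gene, so that the 5 lowest p-values gave 4 sequences. Both Cnot3 peaks also lay wholly over exons of Leng1 on the opposite strand.

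The peak with the lowest p-value of each role group gave 3 further sequences, a choice made after the values were seen, while for the exosome genes that peak is the Exosc5 peak shown above.
Pan3: agcaacctcaGGACttgggttggg
Dcp1b: gaggctgcaaGGACctgcgcccag
Upf1: cgttttagcaGGACgaacttcgcg
The Pan3 window (chromosome 5, 147547824 to 147547847) lay in the 3′ UTR and the Dcp1b window (chromosome 6, 119206571 to 119206594) in the coding sequence. In the Upf1 3′ UTR (chromosome 8, 70332113 to 70332136, minus strand) the GGAC at the peak centre was followed by G and is therefore not a DRACH, although the peak held 4 DRACH sites elsewhere.

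A peak was found for 40 of 53 member genes (75.5%, 95% Wilson interval 62.4 to 85.1), and for 46.3% of all protein-coding genes. That background includes genes that NK cells do not use, and housekeeping families reached similar or larger shares. Of the translation initiation factors (symbols beginning with Eif and a digit), 48 of 55 (87.3%) had a peak, and of the proteasome subunits (Psm) 45 of 50 (90%). Members with a peak had on average 2.27 peaks, beside 1.79 over all coding genes with a peak, and 13 of the 40 (32.5%) had a single peak, beside 53.3%. Intervals cover counting error only, and genes are not replicates.

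Most member peaks were weakly enriched. The median fold enrichment was 1.95 (95% interval of the median 1.58 to 2.22), with an interquartile range of 1.45 to 4.03 and extremes of 1.18 and 91.0, and the median over all peaks of coding genes was 2.37. Under a fold of 2 lay 50 of the 91 peaks (54.9%), beside 39.7% of all. Peaks with a fold of 5 or more, the limit behind the pathway analysis in the study, are termed strong. Strong were 21 of 91 member peaks (23.1%), beside 29.5% of all coding peaks, and 15 of the 40 genes with a peak (37.5%, 24.2 to 53.0) had a strong one, beside 43.4%. At this limit the strong share of members therefore lay near that of the background. With a fold limit of 3, 42.5% of member genes with a peak reached it, beside 56.4% of coding genes with a peak. The p-value was under 0.001 in 62 of 91 member peaks (68.1%), beside 62.3%.

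**Figure D1:**
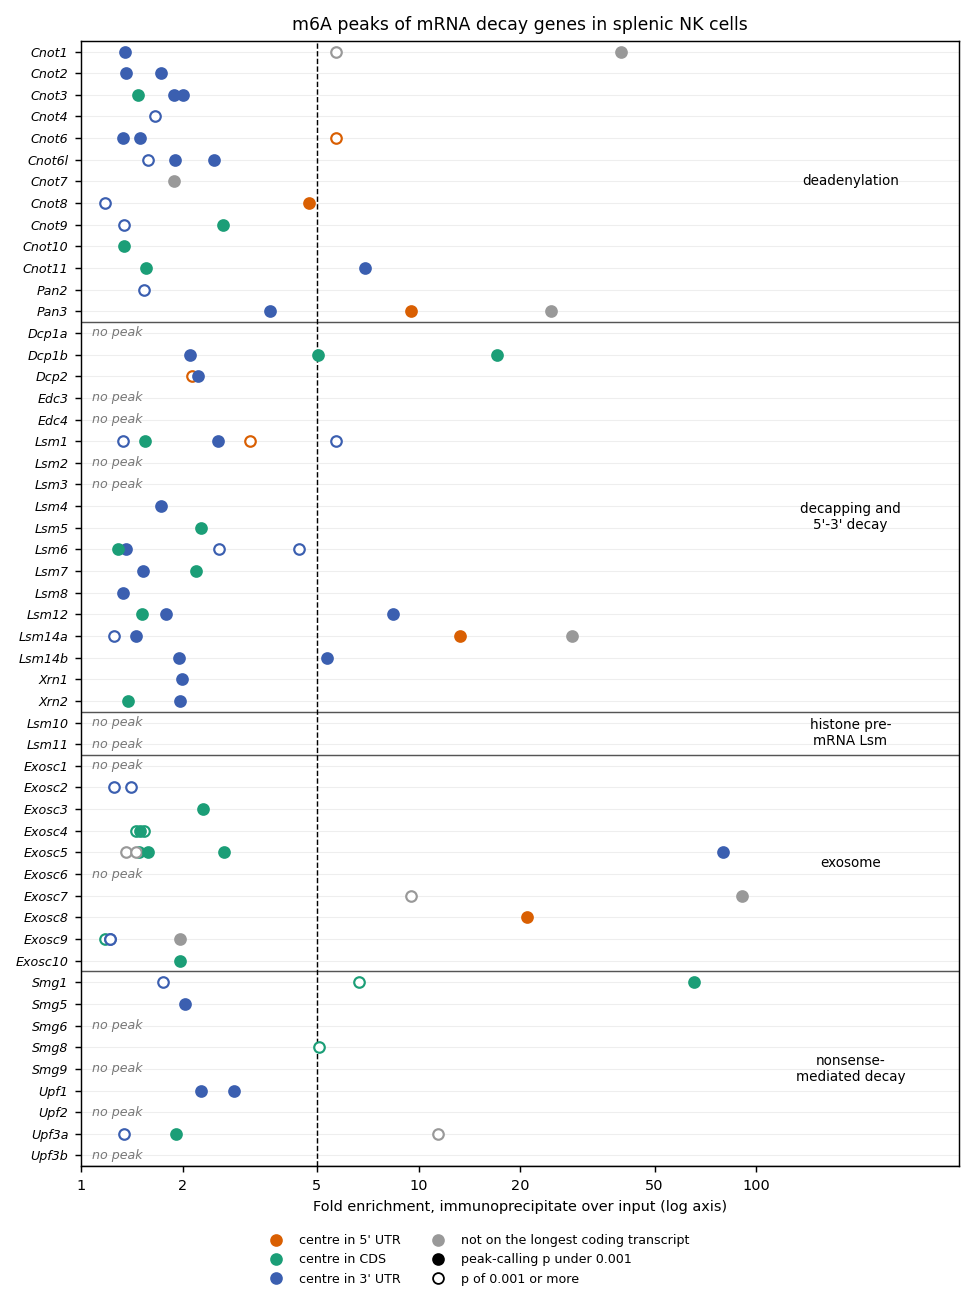
Fold enrichment (log axis, immunoprecipitate over input) of 88 peaks, 1 row for each of 52 member genes, with horizontal lines between the role groups. Colours give the region of the peak centre, filled points have a peak-calling p under 0.001, and the dashed line marks a fold of 5. All 13 deadenylation genes have a peak, most points lie under a fold of 5, and the largest fold is that of Exosc7 (91.0).

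All 13 deadenylation genes had a peak, with 27 peaks in total. These encode the CCR4-NOT complex and PAN2-PAN3, and the median fold of their peaks was 1.88. Cnot1, the scaffold on which CCR4-NOT assembles (ENSMUSG00000036550), had the highest fold of the group. Its peaks at chromosome 8, 95772821 to 95773420 (39.8-fold, log10 p = -8.56) and 95772491 to 95772731 (5.69-fold, log10 p = -2.31) both lay inside intron 6 of the longest coding transcript. There they overlapped exons only of an isoform annotated as an NMD target. On the coding transcript itself Cnot1 had 1 peak, at 95720320 to 95720440, centred 27 nt past the stop codon (1.35-fold, log10 p = -5.23).

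The NOT module and the other non-catalytic subunits of CCR4-NOT had folds of 1.34 to 2.64, apart from a strong peak in Cnot11 and those of Cnot1. Cnot2 and Cnot3, which form the NOT module with Cnot1, had 2 and 3 peaks. Those of Cnot2 had folds of 1.36 and 1.73 in the 3′ UTR. At the end of Cnot3 (ENSMUSG00000035632), peaks at chromosome 7, 3660720 to 3661109 (1.88-fold, log10 p = -20.2) and 3660749 to 3661194 (2.01-fold, log10 p = -19.5) overlapped each other. Over their whole length they also lay on exons of Leng1 on the opposite strand. A further Cnot3 peak at 3655989 to 3656109 in the coding sequence (1.47-fold, log10 p = -3.44) included Mir3572. Cnot4, a ubiquitin ligase, had 1 peak of 1.66-fold (log10 p = -1.92). Cnot9, a subunit that binds partner proteins, had its most significant peak in the coding sequence (2.64-fold, log10 p = -19.5). Cnot10 and Cnot11 form a module at the other end of Cnot1. The single peak of Cnot10 (1.34-fold) was centred 25 nt before the end of the stop codon, and Cnot11 had one 56 nt before it (1.56-fold). Cnot11 (ENSMUSG00000003135) also had a strong peak over the last 61 nt of its transcript (chromosome 1, 39546829 to 39546889, 6.95-fold, log10 p = -3.03).

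The catalytic subunits of CCR4-NOT come in paralogous pairs. Cnot6 (ENSMUSG00000020362) and Cnot6l (ENSMUSG00000034724) encode the CCR4-type enzymes and had 3 peaks each. In Cnot6 2 of them lay far down the 3′ UTR, centred 3331 nt (chromosome 11, 49671832 to 49671892, 1.33-fold, log10 p = -3.39) and 3600 nt (49671503 to 49671682, 1.49-fold, log10 p = -4.83) past the stop codon. The remaining Cnot6 peak was strong and covered the start of the 5′ UTR (49712484 to 49712723, 5.69-fold, log10 p = -2.31). In Cnot6l all 3 lay in the 3′ UTR, at chromosome 5, 96075579 to 96075699 (1.58-fold, log10 p = -2.11), 96072881 to 96073031 (1.90-fold, log10 p = -3.31) and 96070333 to 96070633 (2.47-fold, log10 p = -3.60). Their centres were 1541, 4224 and 6697 nt past the stop codon. Both genes thus had a peak that reached the last base of a long 3′ UTR (3690 and 6847 nt).

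Cnot7 (ENSMUSG00000031601) and Cnot8 (ENSMUSG00000020515) encode the CAF1-type enzymes. The single Cnot7 peak (chromosome 8, 40492600 to 40492958, 1.89-fold, log10 p = -11.8) lay beyond the longest coding transcript and in the 3′ UTR of another coding isoform of the gene, centred 1208 nt past its stop codon. Cnot8 had a peak in the 5′ UTR (chromosome 11, 58104233 to 58104609, 4.74-fold, log10 p = -3.16), just under the limit for strong, and one 153 nt past the stop codon (58117696 to 58117786, 1.18-fold, log10 p = -2.26).

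Pan2, the catalytic subunit of the other deadenylase, had 1 weak 3′ UTR peak (1.54-fold, log10 p = -2.03). Pan3 (ENSMUSG00000029647), which binds the poly(A)-binding protein, had the lowest p-value of the group. Its 3′ UTR peak at chromosome 5, 147547723 to 147548082, from which a sequence is printed above, had a fold of 3.62 and a log10 p of -34.3, and was centred 2156 nt past the stop codon. The other Pan3 peaks were strong, with 9.48-fold (log10 p = -3.51) centred in the 5′ UTR at 147430161 to 147430700 and 24.7-fold (log10 p = -5.04) inside intron 6 at 147517673 to 147519322. The intronic one overlapped only a transcript annotated as a retained intron.

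Of the 18 decapping and 5′ to 3′ decay genes, 13 (72.2%) had a peak, and 31 peaks were named for them with a median fold of 2.10. Dcp2, the decapping enzyme, had a 5′ UTR peak (2.13-fold, log10 p = -2.61) and a peak at the very end of its 7240 nt 3′ UTR, centred 7150 nt past the stop codon (2.22-fold, log10 p = -4.94). Its activators differed, since Dcp1a had no peak while Dcp1b (ENSMUSG00000041477) had 3. The Dcp1b peak at chromosome 6, 119200941 to 119214869 had the lowest p-value of all members (5.02-fold, log10 p = -83.7) and 240 exonic nt in the coding sequence, and its motif sequence is printed above. A second one, 17.1-fold (log10 p = -5.15), ran from 118587240 to 119196418, a span of 609179 nt that includes exons of the neighbour Cacna1c. The third was centred 26 nt past the stop codon (119220031 to 119220181, 2.10-fold, log10 p = -3.67). The decapping enhancers Edc3 and Edc4 had no peak.

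The Lsm1 to Lsm7 proteins form a ring that binds deadenylated mRNA ends and promotes decapping, and with Lsm8 in place of Lsm1 the ring binds U6 snRNA in the nucleus. Lsm2 and Lsm3 had no peak. Lsm1 (ENSMUSG00000037296), which is particular to the cytoplasmic ring, had the most peaks of the group, 5 in all. They ran from the 5′ UTR (chromosome 8, 25785288 to 25785347, 3.16-fold, log10 p = -1.69) over the coding sequence (25793700 to 25793849, 1.55-fold, log10 p = -3.31) into the 3′ UTR. There the folds were 1.33 (25802072 to 25802161, log10 p = -2.21), 2.54 (25802310 to 25802488, log10 p = -5.42) and 5.69 (25802607 to 25803975, log10 p = -1.31). The strong one covered 1369 nt with a p-value at the edge of what the list holds, whose weakest log10 p was -1.3. Lsm4 and Lsm5 had 1 peak each close to the stop codon, with low p-values (1.73-fold, log10 p = -20.3, and 2.26-fold, log10 p = -27.7), and the Lsm5 peak held 240 of the 494 nt of its transcript. Lsm6 had 4 peaks of 1.29- to 4.43-fold, the highest at the end of the 3′ UTR, centred 3226 nt past the stop codon (log10 p = -1.95). Lsm7 had 2 (1.53- and 2.19-fold) and Lsm8 had 1 (1.33-fold).

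Lsm14a and Lsm14b encode paralogous proteins of processing bodies, the granules where decapping factors gather, and both had strong peaks in different places. Lsm14a (ENSMUSG00000066568) had one over the 5′ UTR (chromosome 7, 34389438 to 34389677, 13.3-fold, log10 p = -9.44). A second strong peak (34362701 to 34363807, 28.4-fold, log10 p = -5.91), the highest fold of the group, lay inside intron 4, touched no exon of the gene and coincided over its 1107 nt with Gm44567. Its 3′ UTR peaks had folds of 1.25 (34345245 to 34345364, log10 p = -2.64) and 1.45 (34344796 to 34344975, log10 p = -4.10). Lsm14b (ENSMUSG00000039108) had both of its peaks in the 3′ UTR, 5.37-fold (chromosome 2, 180034750 to 180035018, log10 p = -13.9) and 1.95-fold (180035167 to 180035465, log10 p = -13.5). Lsm12 (ENSMUSG00000020922), in this group by its symbol, had a strong 3′ UTR peak of 598 nt that reached the end of the transcript (chromosome 11, 102162497 to 102163094, 8.39-fold, log10 p = -41.6). Its other peaks had folds of 1.79 and 1.52.

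The 5′ to 3′ exonucleases Xrn1, which acts in the cytoplasm, and Xrn2, which acts in the nucleus, had no strong peak. Xrn1 (ENSMUSG00000032410) had 1 peak at the end of a 4994 nt 3′ UTR, centred 4889 nt past the stop codon (chromosome 9, 96057593 to 96057803, 1.99-fold, log10 p = -4.10). Xrn2 (ENSMUSG00000027433) had one centred 362 nt past the stop codon (chromosome 2, 147077820 to 147078000, 1.96-fold, log10 p = -9.26) and one centred 72 nt before it (147068872 to 147077611, 1.38-fold, log10 p = -7.18). Neither Lsm10 nor Lsm11 had a peak. They belong to the U7 particle, which processes histone pre-mRNAs, and stand outside the decay routes.

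Among the 10 exosome genes 8 had a peak (20 peaks), with the lowest median fold of the groups, 1.52. Exosc1, Exosc2 and Exosc3 encode the cap of the complex. Exosc1 had no peak, Exosc2 had 2 weak ones (1.25- and 1.41-fold), and the single Exosc3 peak of 2.30-fold (log10 p = -18.8) was centred 23 nt before the end of the stop codon. Of the ring subunits, Exosc4 had 3 peaks of 1.45- to 1.54-fold, 2 of which overlapped each other and exons of Oplah, and Exosc9 had 4 peaks of 1.18- to 1.97-fold that all lay over exons of Ccna2. Exosc10, the nuclear exonuclease subunit, had 1 peak of 1.97-fold (log10 p = -10.7).

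The exosome group also held the largest folds of all members. Exosc7 (ENSMUSG00000025785) had peaks of 91.0-fold (chromosome 9, 123114232 to 123116266, log10 p = -20.7) and 9.48-fold (123113514 to 123114082, log10 p = -1.69), both inside intron 1, where only a retained-intron transcript is annotated. No peak was placed on its coding transcript. Exosc5 (ENSMUSG00000061286) had 6 peaks, the most of any member. Of these, 3 lay in the coding sequence, at chromosome 7, 25659164 to 25659404 (2.66-fold, log10 p = -6.64), 25663191 to 25663311 (1.48-fold, log10 p = -3.69) and 25667719 to 25667958 (1.58-fold, log10 p = -6.00). Peaks at 25664450 to 25664510 (1.36-fold, log10 p = -2.25) and 25666399 to 25666459 (1.45-fold, log10 p = -2.94) overlapped only retained introns. The sixth, at 25669348 to 25670548, had a fold of 79.7 (log10 p = -23.3) and touched the Exosc5 3′ UTR with 96 of its 1201 nt, while 656 nt were exons of Tmem91 on the opposite strand. Whether the libraries kept the strand was not given in the sources used here, so that reads of the 2 genes cannot be told apart. Exosc8 (ENSMUSG00000027752) had 1 peak at its 5′ UTR (chromosome 3, 54734855 to 54735064, 20.9-fold, log10 p = -4.18) with 57 exonic nt.

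Of the 10 NMD genes 6 had a peak (13 peaks, median fold 2.26). Upf1 (ENSMUSG00000058301), the central helicase, had the lowest p-value of the group in its 3′ UTR (chromosome 8, 70331855 to 70332394, 2.84-fold, log10 p = -43.8) and a second peak nearer the end (70331525 to 70331795, 2.26-fold, log10 p = -18.9) that overlapped Cers1. Upf2 and Upf3b, which link UPF1 to the exon junction complex, had none. Upf3a (ENSMUSG00000038398), the paralog of Upf3b, had 3, with 1.91-fold in the coding sequence (chromosome 8, 13795456 to 13798206, log10 p = -14.5) and 1.34-fold at the stop codon (13798385 to 13798565, log10 p = -2.21). The third Upf3a peak, 11.4-fold (13786715 to 13786894, log10 p = -2.09), lay inside intron 2 on a retained-intron transcript.

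Smg1 (ENSMUSG00000030655), the kinase that phosphorylates UPF1, had strong peaks at chromosome 7, 118191051 to 118195104 (65.4-fold, log10 p = -30.4) and 118189146 to 118190494 (6.64-fold, log10 p = -2.0). Both were placed in the coding sequence by their exonic part, centred on exons 13 and 16 of 63. Only 339 of 4054 nt and 240 of 1349 nt were exonic in that transcript. Both also overlapped exons of an isoform annotated as an NMD target, and the 65.4-fold peak a retained-intron transcript. The authors' label for both was 3′ UTR. A weak Smg1 peak lay at the end of the 3′ UTR (118131338 to 118131488, 1.75-fold, log10 p = -2.93). Of the cofactors of this kinase, Smg9 had no peak and Smg8 (ENSMUSG00000020495) had 1 over the start of its coding sequence (chromosome 11, 87086565 to 87086774, 5.06-fold, log10 p = -2.59). Smg5, which binds phosphorylated UPF1, had 1 peak near its 3′ end (2.03-fold, log10 p = -12.6). Smg6, the endonuclease of the pathway, had no peak.

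The 13 genes without a peak were therefore Dcp1a, Edc3, Edc4, Lsm2, Lsm3, Lsm10, Lsm11, Exosc1, Exosc6, Upf2, Upf3b, Smg6 and Smg9. A gene without a peak may be unmethylated, little expressed or thinly covered, and the list cannot tell these apart. In pooled cells, fewer cells with a transcript and less of it per cell cannot be told apart either. Their longest coding transcripts had a median length of 2344 nt and a median 3′ UTR of 834 nt, beside 2898 and 960 nt for members with a peak. All 13 transcripts held GGAC, from 3 times in Exosc1 and Lsm3 to 33 times in Smg6. Over the 53 genes, the number of peaks and the 3′ UTR length had a Spearman's rho of 0.23, and over the 40 genes with a peak it was 0.43, given as descriptions across genes.

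For 3 of the 13, exons lay under peaks that the list names for another gene. Exosc6, a ring subunit with a single exon (chromosome 8, 111056339 to 111057664), contained 4 peaks named for Aars, whose exons also cover it on the same strand. They had folds of 3.03 (111056545 to 111056692), 3.79 (111056556 to 111056676) and 7.59 (both 111056928 to 111057664 and 111056916 to 111057664), with log10 p from -1.47 to -12.7. The 3′ part of Edc3 shared 480 nt with each of 2 peaks named for Clk3 on the opposite strand (1.97-fold, log10 p = -22.2, and 1.98-fold, log10 p = -22.5). In Lsm3, 355 exonic nt lay under a peak named for AC161456.1 (1.66-fold, log10 p = -23.5). That peak spans 2765 nt, of which 174 were exons of AC161456.1. Among members with peaks of their own, Cnot9 exons lay under peaks named for Plcd4 (15.2-fold, log10 p = -3.93) and Usp37 (4.74-fold, log10 p = -4.15). The Plcd4 peak has a genomic span of 38484 nt that takes in all 3268 nt of the Cnot9 transcript, while 141 nt were exons of Plcd4. Exosc8 exons lay under 2 peaks named for Supt20 (2.10- and 2.27-fold). Conversely, 13 of the 91 member peaks (14.3%) lay over exons of another gene. They belonged to 7 genes (Cnot3, Dcp1b, Exosc4, Exosc5, Exosc9, Lsm14a and Upf1). The share over all coding genes was not computed. With those peaks left out, 38 member genes had a peak.

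**Figure D2:**
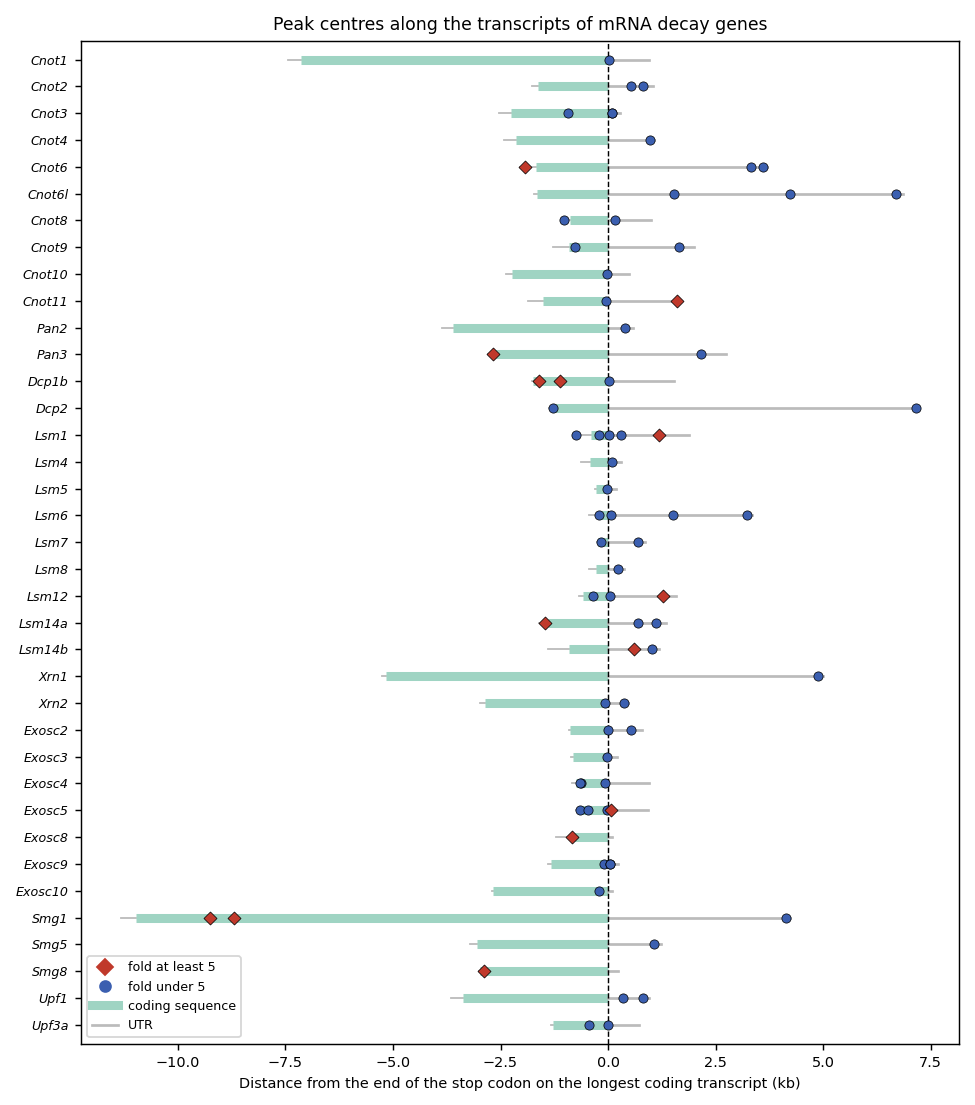
Centres of 77 peaks placed on the longest coding transcript of their gene, by distance in kb from the end of the stop codon (dashed line). Thick bars are coding sequence, thin lines UTRs, red diamonds strong peaks and blue circles weaker ones. Circles gather around the stop codon, and some lie at the ends of long 3′ UTRs, as in Cnot6l, Dcp2 and Xrn1. Only 1 diamond (Exosc5) lies within 200 nt of the stop codon.

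Of the 91 peaks, 80 could be placed on the longest coding transcript by the centre of their exonic part. The centre lay in the 3′ UTR for 48 (60%, 49.0 to 70.0), in the coding sequence for 25 (31.2%) and in the 5′ UTR for 7 (8.75%). Over all coding genes these shares were 56.5%, 33.6% and 9.95%. Within 200 nt of the stop codon lay 23 centres (28.8%, 20 to 39.5), beside 22.3% over all coding genes. In the narrower window of 100 nt there were 20 (25%, 16.8 to 35.5), beside 12.6%, so that 20 of the 23 lay in the inner part. Overlapping peaks and peaks over exons of other genes are among them, and the share without these was not computed. Another 21 centres (26.2%) lay over 1000 nt past the stop codon, beside 22.5%.

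Role groups differed in where their peaks lay, with few peaks in each. In the exosome genes 8 of 15 placed centres (53.3%, 30.1 to 75.2) were within 200 nt of the stop codon, and of the centres past the stop codon the farthest, in Exosc2, was 541 nt from it. The 8 include Exosc9 peaks over exons of Ccna2, among them an overlapping pair, and the Exosc5 peak over exons of Tmem91. The interval counts each of these as a separate peak of the exosome genes. In the NMD genes 1 of 12 (8.33%, 1.49 to 35.4) was within 200 nt and 5 were over 1000 nt past. Deadenylation genes had 6 of 23 (26.1%) and decapping genes 8 of 30 (26.7%) within 200 nt. The 3′ UTRs of the exosome genes with a peak were short, 87 to 962 nt long, and the difference between the groups was not tested.

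Peaks at the distal end of the transcript occurred in several genes, in shares near those of all coding genes. Of the 48 centres in 3′ UTRs, 10 (20.8%, 11.7 to 34.3) lay in the last 10% of the UTR, beside 17.8%. The last base of the transcript was included in 17 of 80 placed peaks (21.2%), beside 22.3% over all coding genes. In 3′ UTRs longer than 1000 nt, 10 of 32 peak centres (31.2%) lay in the last 10% of the UTR, beside 23.7%. Among them were peaks of Cnot6, Cnot6l, Dcp2, Xrn1 and Lsm6, with folds of 1.49, 2.47, 2.22, 1.99 and 4.43. The strong peak of Cnot11 (6.95-fold) was also among them, as were weak ones of Cnot4 (1.66-fold) and Smg1 (1.75-fold).

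Motif density in member peaks was compared with that of all placed peaks. Exonic peak sequence of members held 322 DRACH sites, or 19.4 per kb (95% Poisson interval 17.3 to 21.6), beside 20.2 per kb overall. GGAC occurred 4.63 times per kb, beside 4.03. At least 1 DRACH was present in 62 of 80 member peaks (77.5%), beside 90%, and a GGAC in 39 (48.8%), beside 54.5%. Peak length bears on these shares, and the median exonic length was 180 nt in members and 203 nt overall. Both motifs were searched on the gene's strand only and overlap each other, and a match does not show that its A is methylated.

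**Figure D3:**
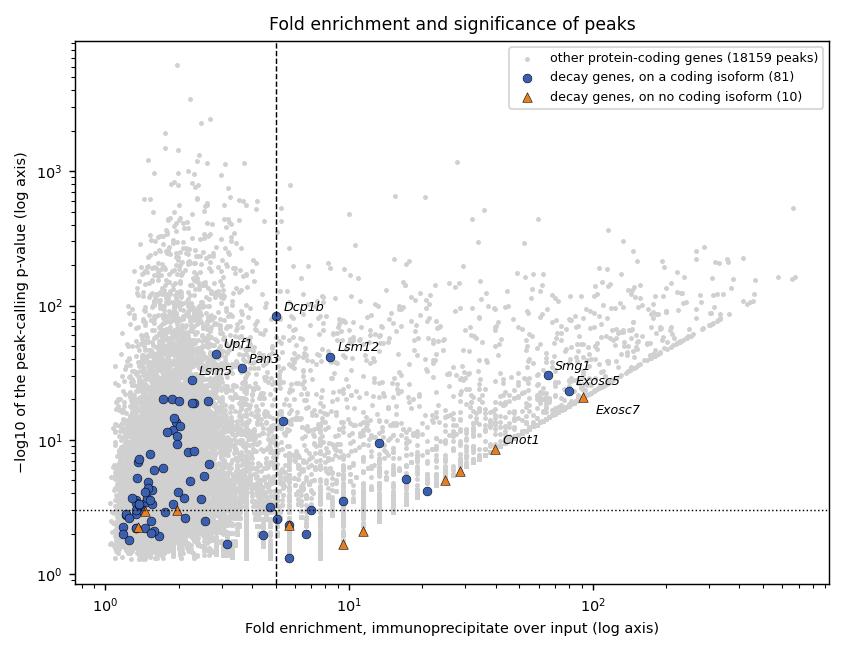
Fold enrichment against −log10 of the peak-calling p-value (both log axes) for the 91 peaks of decay genes and, in grey, 18159 peaks of other protein-coding genes. Lines mark a fold of 5 and a p of 0.001, and triangles are the 10 decay gene peaks over no exon of a coding isoform. The largest member folds (Exosc7, Exosc5, Smg1) do not belong to the lowest p-value (Dcp1b), and 7 of the 10 triangles have a fold of at least 5.

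Strong and weaker member peaks were compared by the transcripts they overlapped. Of the 21 strong peaks 7 (33.3%) overlapped no exon of a protein-coding isoform, beside 3 of the 70 weaker ones (4.29%), and over all coding genes these shares were 17.7% and 6.55%. The 7 were those described in Cnot1 (2), Exosc7 (2), Lsm14a, Pan3 and Upf3a. Of the 10 member peaks without a coding isoform, 6 lay on retained-intron transcripts only, 2 on an NMD isoform and 2 on no exon of the gene. Of the 14 strong peaks that could be placed, 5 (35.7%) lay in the 3′ UTR and 5 (35.7%) in the coding sequence. The other 4 (28.6%) lay in the 5′ UTR (Cnot6, Pan3, Exosc8 and Lsm14a). Over all coding genes these shares were 39.4%, 43.7% and 16.8%. The median fold was 5.69 over the 7 peaks in 5′ UTRs, 1.74 in 3′ UTRs and 1.58 in coding sequence, beside 4.0, 2.02 and 2.53 over all coding genes.

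Large folds did not come with low p-values throughout. Of the 21 strong peaks 14 (66.7%) had a p under 0.001, beside 53.9% of all strong coding peaks. Fold and −log10 p had a Spearman's rho of 0.32 over the 91 member peaks and -0.05 over all 18250, given as descriptions. Many strong peaks also shared their values exactly. The pair of 9.48-fold and log10 p = -1.69, found in Exosc7, occurred in 845 peaks of the list, and that of Upf3a (11.4-fold, log10 p = -2.09) in 532. Of the strong member folds, 14 of 21 were whole multiples of 1.90 (1.8965 before rounding) to within the last printed digit. So were 80.2% of strong coding peaks and 82.9% of all 7179 strong peaks of the list. The step was chosen to give the most such multiples among those 7179 peaks, so high shares were selected for. Among weaker peaks the share was 1 of 70 in members and 6.58% over all coding genes. Few multiples lie under a fold of 5, and large folds are printed more coarsely, so strong and weaker shares are not alike in kind. The strong member peaks that were not such multiples were those of Smg1 (both), Dcp1b (5.02-fold), Lsm12, Lsm14b, Cnot11 and Smg8. The number of reads behind a peak is not in the list.

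Other genes of mRNA decay, from a list of 56 outside the symbol rule, gave like values. A peak was present in 45 (80.4%), and 13 of these (28.9%) had a strong one. The RNA helicase Ddx6, a decapping activator, had a peak of 3.77-fold with log10 p = -101, and the poly(A)-binding protein Pabpc1 one of 2.66-fold with log10 p = -111. The uridylyltransferase Tut7 had the largest fold of the list (56.9, log10 p = -172), and Gspt1, the translation termination factor eRF3, had 25.6-fold. Ythdf2, the reader that recruits CCR4-NOT, had 1 peak of 1.80-fold (log10 p = -5.82). Among the Eif and Psm genes with a peak, 20.8% and 20% had a strong one.

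**Figure D4:**
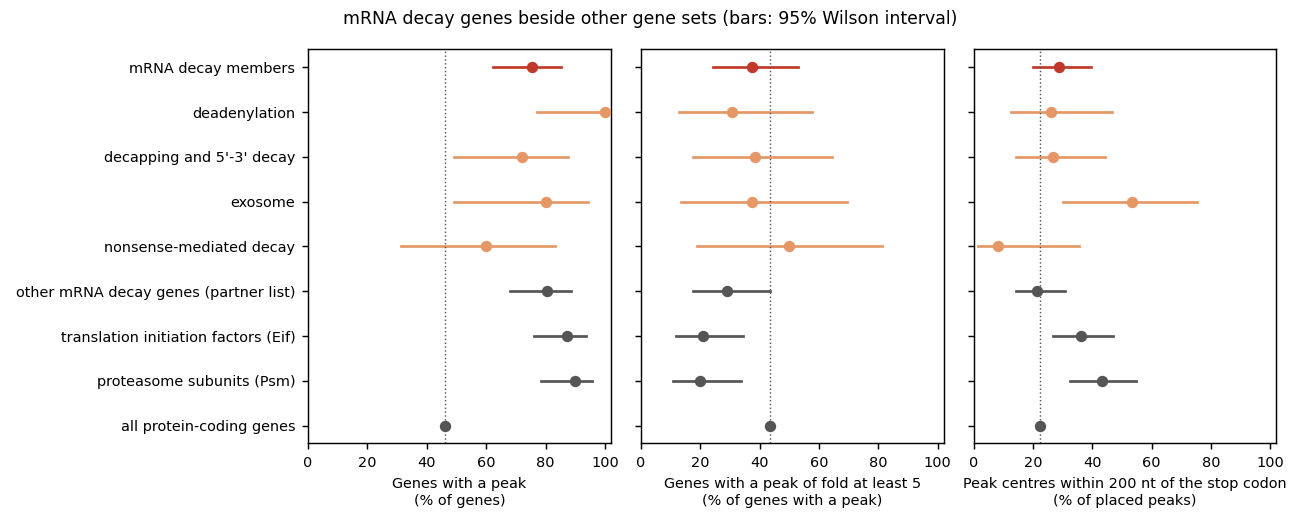
Shares in percent, with 95% Wilson intervals as bars, for all members, their role groups and other gene sets, of genes with a peak (left), of genes with a strong peak among those with a peak (middle) and of peak centres within 200 nt of the stop codon (right). Dotted lines mark all protein-coding genes (46.3%, 43.4% and 22.3%). Members lie above the line on the left and their intervals include it in the other panels, as do those of the role groups except the exosome on the right. The exosome share there includes overlapping peaks and peaks over exons of other genes.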

How the data were processed

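MeRIP-seq of 2 m6A immunoprecipitates and 2 inputs had been processed by the authors, who used HISAT2 for alignment of trimmed reads (GRCm38 per the labels), called peaks with exomePeak and annotated them with ChIPseeker. The deposited fold enrichment is a ratio of immunoprecipitate over input made by the authors. The deposited significance was treated as a score that holds log10 values of the unadjusted p from peak calling. How replicates were combined is not given in the sources used here, and 0 columns held a value per sample, so depth is unknown and no planned result had a test.

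From 20751 rows, 24 exact repeats were removed. Peaks kept the gene named by the authors. Of 12351 gene identifiers, 12332 were found in GENCODE M21, whose longest coding transcript and 200 nt around the stop codon gave positions (Python 3.11.15, pandas 2.3.3, NumPy 2.4.6, SciPy 1.17.1). Placement was tested on simulated data. The step of 1.90 was the value between 1.5 and 2.5 of which most strong folds were whole multiples.

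Members, gene lists and the rules for genes with full values (strong peaks, extremes of each role group, paralog pairs) were chosen with earlier results of these data known. Thresholds, transcript model, peak centre, motif and the inclusion of the Lsm genes were varied, while the role groups were not. The values of 1 member are not reported here on their own and enter the counts only.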

Additional observations from a re-analysis of the deposited data

How the results depend on the processing

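Over 11 results, 51 alternative values were computed, of which 33 stayed within the interval or range set for them and 18 moved. With a fold of at least 2, 50.9% of members (35% of coding genes) had a peak and 41 peaks were left. With a fold of at least 5 these values were 28.3% (20.1%) and 21, while 35.7% (39.4%) of centres lay in the 3′ UTR and 7.14% (10.4%) close to the stop codon, both now under the value of all coding genes. The shares of partner, Eif and Psm genes with a peak were 23.2%, 18.2% and 18%, so that the Eif and Psm shares lay under that of all coding genes. Under a fold limit of 10, 22.5% of members with a peak had a strong one (27.5% of coding genes), and with a fold of at least 5 and p under 0.001 together 27.5% (25.7%), which turned the order of members and background. The median of each gene's strongest peak was 2.40 (3.79). With p limits of 0.01 and 1e-05 the share of peaks was 91.2% (81.7%) and 40.7% (44.0%), and with p under 0.001 64.3% of partner genes (34% of coding genes) had a peak. At that limit 57.1% (58.7%) of member centres lay in the 3′ UTR, again under all coding genes. The 3′ UTR share was 75.9% (73.6%) by the centre of the genomic span and 72.5% (59.4%) by the authors' labels, the share within 400 nt of the stop codon 40.0% (36%), and GGAC in place of DRACH occurred 4.63 (4.03) times per kb. Values in parentheses are those of all coding genes. Leaving out peaks over exons of other genes, an alternative chosen after seeing the data, left 71.7% of members with a peak. For this alternative the value of all coding genes was not computed. No paired analysis was possible because each peak has a single value for the whole series, and leaving out each replicate was not run for the same reason.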
